A study of Mus musculus with 12 samples.

Results

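T cells that carried 2 productive T cell receptor alpha chains were taken from the brain T cells of 6 pools of mice. A dual-alpha cell was a barcode with exactly 2 TRA contigs and exactly 1 TRB contig, and a single-alpha cell was a barcode with exactly 1 TRA and 1 TRB contig in the same pool. Both kinds had to show at least 500 genes and at most 10% mitochondrial UMIs (unique molecular identifiers, the counted molecules). There were 1228 dual-alpha cells beside 10791 single-alpha cells, among 17962 kept cells of 18374 barcodes. All mice were 9-month-old females, and each pool mixed cells of several mice and counts as 1 sample. The WT pools held 10 mice (WT-1) and 8 mice (WT-2), the 5XFAD pools 4 mice (5XFAD-1) and 3 mice (5XFAD-2), and the PS19 and PS-5X pools 4 mice each. Hemizygous PS19 mice (B6C3F1/J, mutant human MAPT under the mouse prion protein promoter) had been crossed with hemizygous 5XFAD mice (C57BL6 congenic), a line that develops amyloid deposits. WT littermates carried neither transgene set and PS-5X mice carried both. The T cells came from perfused brain parenchyma and had been sorted as CD4+, CD8+ or γδ+ cells. One sequencing run, called the separate run here, covered the WT-2 and 5XFAD-2 pools, while WT-1, 5XFAD-1, PS19 and PS-5X shared another, the common run.

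An αβ T cell receptor pairs 1 alpha with 1 beta chain. Most T cells make only 1 productive beta chain, because a productive beta chain stops further rearrangement of the beta gene. The alpha locus is rearranged on both chromosomes at about the same time and can rearrange again, each time joining a V segment farther upstream to a J segment farther downstream, until the receptor is positively selected in the thymus. A mature T cell can therefore keep 2 in-frame alpha chains that share 1 beta chain. In the mouse the locus lies on chromosome 14. In the RefSeq annotation of GRCm38.p6 the V segments begin with Trav1 at chr14:52427967-52428876, 130 V segments and pseudogenes are spread over 1549.2 kb, and the J segments run from Traj61 at chr14:54155005-54155076 to Traj2 at chr14:54217836-54217901. J numbers count down towards the constant gene Trac at chr14:54220521-54224198. All 89 TRAV and 43 TRAJ names in the contigs matched this annotation.

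The alpha pairs below are those of 6 large clones whose cells shared 1 beta chain. They are shown because the same 2 chains were read in many cells of each clone. Their J segments also lie nearer than the median of chains from different cells (15 J numbers), which was part of the choice. The pairs are examples and are no support for the J distances given below. Each line is the CDR3-coding stretch of 1 chain, 5′ to 3′, and the capitals mark bases that the authors' consensus annotation assigned to neither the V nor the J segment.
clone 1 alpha 1: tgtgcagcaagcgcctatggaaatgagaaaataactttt
clone 1 alpha 2: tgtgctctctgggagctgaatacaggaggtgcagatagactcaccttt
clone 2 alpha 1: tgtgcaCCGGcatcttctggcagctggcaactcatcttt
clone 2 alpha 2: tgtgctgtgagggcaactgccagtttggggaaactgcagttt
clone 3 alpha 1: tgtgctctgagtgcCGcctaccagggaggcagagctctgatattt
clone 3 alpha 2: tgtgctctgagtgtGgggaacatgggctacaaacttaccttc
clone 6 alpha 1: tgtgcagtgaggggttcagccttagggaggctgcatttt
clone 6 alpha 2: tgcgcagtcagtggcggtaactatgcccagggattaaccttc
clone 9 alpha 1: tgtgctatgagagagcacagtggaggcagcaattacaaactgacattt
clone 9 alpha 2: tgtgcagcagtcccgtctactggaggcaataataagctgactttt
clone 11 alpha 1: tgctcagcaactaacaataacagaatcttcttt
clone 11 alpha 2: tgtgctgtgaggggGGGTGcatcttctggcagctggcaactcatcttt

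Clone 1 was a CD8 clone of 156 cells in 5XFAD-1 and joined TRAV7D-2 (chr14:52683964-52684472) to TRAJ48 and TRAV15-1-DV6-1 (chr14:53559676-53560247) to TRAJ45. Clone 2, of 110 CD8 cells in PS-5X, used TRAV7N-6 with TRAJ22 and TRAV9D-2 with TRAJ24. Clone 3, of 47 CD8 cells in PS-5X, used TRAV12D-3 with TRAJ15 and TRAV6-6 with TRAJ9. Clone 6, of 21 CD8 cells in 5XFAD-2, used TRAV7-3 with TRAJ18 and TRAV3-3 with TRAJ26. Clone 9, of 15 CD8 cells in 5XFAD-1, used TRAV16N with TRAJ53 and TRAV14D-3-DV8 with TRAJ56. Clone 11 was the largest dual-alpha CD4 clone, with 9 cells in 5XFAD-2, and used TRAV5-1 with TRAJ31 and TRAV1 with TRAJ22. V segments with D or N in their names are near-identical copies of others in this locus, so the assigned copy is uncertain.

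Dual-alpha cells carried the markers of T cells. Cd3e, a subunit of the receptor complex, had a UMI in 99.6% of dual-alpha and 99.5% of single-alpha cells, and Cd3g in 99.3% and 98.1%. Cd8b1 had a UMI in 72.5% and 71.7%, and Cd4 in 24.3% and 20.9%. Trdc, the constant gene of γδ receptors, had a UMI in 0.896% and 1.32%. Of 8 microglial and macrophage markers Csf1r and C1qb had no UMI in any dual-alpha cell, and one in 0.287% and 0.065% of single-alpha cells. P2ry12 had one in 0.163% and 0.037%, Lyz2 in 0.081% and 0.028%, C1qa in 0.081% and 0.083%, and Apoe in 0.163% and 0.408%. Cx3cr1, which effector T cells also express, had one in 3.01% and 4.865%. The B and plasma cell markers Cd79a, Cd79b, Ms4a1 and Igkc had one in 0.244%, 2.93%, 0.163% and 7.085% of dual-alpha cells. In single-alpha cells these values were 0.232%, 2.93%, 0.074% and 5.773%. Ighm and Ctss, listed as B cell and myeloid markers, had UMIs in 34.6% and 45.5% of dual-alpha and 32.6% and 45.2% of single-alpha cells. Putative doublets by Scrublet score made up 2.61% of dual-alpha and 2.29% of single-alpha cells.

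Some receptors were found in more than 1 pool. Their cells made up 186 dual-alpha cells (15.1%) and 903 single-alpha cells (8.37%). WT-1 held 26 of these dual-alpha cells, 5XFAD-1 70, PS19 11 and PS-5X 79, while WT-2 and 5XFAD-2, the separately sequenced pools, held none. Of 18208 barcode sequences, 166 occurred in 2 or more pools. Values without these cells are given beside the main comparisons below. The counts of called genes were the same without them (3 in CD8 and 2 in CD4 cells, outside the receptor loci). The CD8 genes were not all the same, since Ttr, called in the main comparison, was then below the filter on low counts.

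The dual-alpha share was close to 10% in every pool. It was 12.1% in WT-1 (64 of 529 dual-alpha and single-alpha cells), 10.5% in 5XFAD-1 (190 of 1818), 9.26% in PS19 (154 of 1663) and 10.3% in PS-5X (426 of 4150), and in the separate run 9.74% for WT-2 (236 of 2422) and 11% for 5XFAD-2 (158 of 1437). Over all pools it was 10.2% (95% Clopper-Pearson interval 9.68 to 10.8, which like all intervals here covers counting error only), and 9.53% (8.99 to 10.1) without cells of receptors found in more than 1 pool. The intervals of all 6 pools overlapped. Pools with the amyloid transgenes averaged 10.6% ± 0.379 (SD, n = 3) and pools without them 10.4% ± 1.52 (SD, n = 3), a difference of 0.20 percentage points. It was smaller than the spread between pools in an exact two-sided permutation test (p = 0.9, smallest possible 0.1). Within the common run the difference was -0.32 points and within the separate run 1.25 points.

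CD8 and CD4 T cells, told apart by Cd8a plus Cd8b1 or Cd4 UMIs, had similar shares. Among CD8 cells 859 of 8632 were dual-alpha (9.95%, 9.33 to 10.6) and among CD4 cells 245 of 2260 (10.8%, 9.59 to 12.2). By pool the CD8 and CD4 shares were 11.5% and 12.1% in WT-1, 10.4% and 8.95% in 5XFAD-1, 9.12% and 9.95% in PS19, and 10.2% and 9.70% in PS-5X. In the separate run they were 9.59% and 10.5% in WT-2 and 9.42% and 17.6% in 5XFAD-2, whose CD4 share stood above that of the other 5 pools. The CD8 share was lower by a mean of 1.41 points (SD of the 6 differences 3.43) and lower in 4 of 6 pools (exact sign-flip permutation test, p = 0.438, adjusted p = 0.547 over 10 paired comparisons). Without 5XFAD-2 the mean difference was -0.0623 points. Without the cells of receptors found in more than 1 pool it was -3.21 points, and the CD8 share was then lower in every pool (exact p = 0.03125, the smallest that 6 pools allow, adjusted p = 0.156).

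Cells with UMIs of both lineages had a higher share, 54 of 294 cells (18.4%, 14.1 to 23.3), and it ran from 11% in WT-2 to 25.7% in 5XFAD-2. In clones of 1 cell it was 15.0% (27 of 180). Cells with no UMI of either lineage gave 8.40% (70 of 833). A cell with UMIs of both lineages can be 2 cells in 1 droplet, and the part of this in the higher share was not tested.

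**Figure D1:**
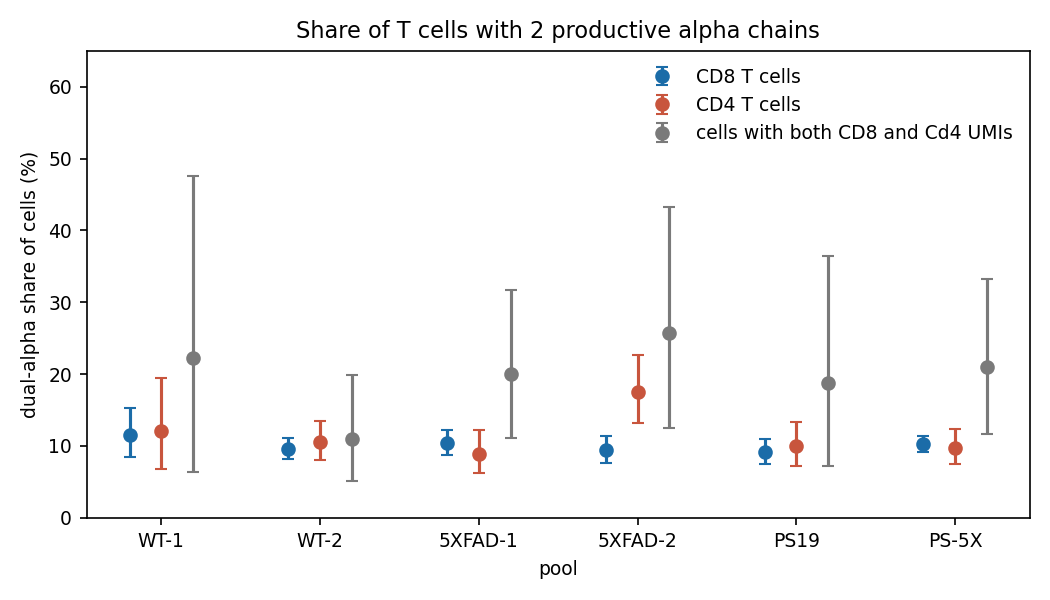
Share of dual-alpha cells among dual-alpha and single-alpha cells (%, y axis) in each pool (x axis), for CD8 cells, CD4 cells and cells with UMIs of both lineages; points are shares and bars 95% Clopper-Pearson intervals. CD8 shares lie between 9.12% and 11.5%, and the CD4 share of 5XFAD-2 (17.6%) stands above the other CD4 shares.

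The dual-alpha share of large clones depended on a few shared clones. Clones were the authors' clonotypes, sized within each pool. In CD8 cells the dual-alpha share was 9.95% in clones of 1 cell (456 of 4581), 11.5% in clones of 2 to 4 cells (149 of 1299), 7.07% in clones of 5 to 19 (78 of 1104) and 10.7% in clones of 20 or more (176 of 1648). The last class was set by few clones, since 7 of its 39 clones held any dual-alpha cell and its share ran from 0 of 52 cells in PS19 to 38.9% in WT-1 (7 of 18 cells of 1 clone). In CD4 cells it was 11.3% (201 of 1779), 9.59% (26 of 271) and 20.5% (18 of 88) in the first 3 classes, and 0 of 122 cells in 5 clones of 20 or more. The CD8 shares were also taken without cells of receptors found in more than 1 pool. From the smallest to the largest class they were 9.88% (9.02 to 10.8), 11.7%, 5.41% (49 of 906) and 5.30% (62 of 1170, 4.09 to 6.74). By count of cells the largest class was lower than clones of 1 cell. Cells of a clone share their receptor, so these intervals are too narrow for clones, and this difference between classes was not tested over clones.

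Averaged over clones, expanded CD8 clones (2 or more cells) held 10.8% ± 1.82 dual-alpha cells and singletons 9.94% ± 0.822 (SD, n = 6 pools), and the difference of 0.85 points was smaller than the spread between pools (exact sign-flip permutation test, p = 0.531, adjusted 0.59). Expanded CD4 clones held 13.9% ± 10.1 and singletons 11.8% ± 2.24 (exact p = 0.719, adjusted 0.719). WT-1 had the largest difference in both lineages, 5.09 and 21.5 points. Without WT-1 the differences were -0.0025 and -1.74 points, and without cells of receptors found in more than 1 pool they were -1.25 and -2.50 points, the second over 5 pools because WT-1 kept too few expanded CD4 clones. Both differences changed sign in each of these settings.

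Whole clones gave the share of cells in which both chains of a clone were read. Clones were here defined by the beta chain alone: cells of 1 pool with an identical TRB V and J segment and CDR3, at least 5 of them, and the commonest alpha in at least 50%. Of 199 such clones 27 (13.6%) held another alpha in at least 25% of their cells, and they were 25 distinct receptors. The 2 others, clones 5 and 27 of WT-1, repeated both alpha chains and the beta chain of clones 1 and 9 of 5XFAD-1 and were all the dual-alpha clones of WT-1. The labels do not say how receptors came to be shared between pools, so whether these cells belong to WT-1 cannot be told, and the same holds for the other shared receptors. Just below the threshold the highest share of cells with another alpha was 20%, and just above it the lowest was 28.6%. CD8 cells led 21 of the clones and CD4 cells 4.

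Whether cells with 1 chain held the other unread or lacked it was not tested. In these 27 clones 290 of 558 cells (52.0%, 47.7 to 56.2) showed both alpha chains, 235 only the more frequent chain and 33 only the other. The share with both chains was 28.9% in WT-2 (13 of 45 cells), 35.8% in 5XFAD-1 (67 of 187), 44.4% in WT-1 (12 of 27), 65.6% in PS-5X (160 of 244), 68.8% in PS19 (11 of 16) and 69.2% in 5XFAD-2 (27 of 39). Clone 1 set the low value of 5XFAD-1, because both chains were read in 41 of its 156 cells (26.3%), where the more frequent chain had a mean of 6.30 UMIs and the other 2.96. In clone 2 both were read in 79 of 110 cells (71.8%), with means of 4.26 and 4.16 UMIs. Clone 9 gave 14 of 15 cells, clone 11 gave 8 of 9 and clone 6 gave 17 of 21, and in 4 clones every cell showed both chains. Without clone 1 and its copy in WT-1 the share was 63.4% (241 of 380 cells, 58.4 to 68.3), and with a threshold of 50% of cells for the rarer chain it was 69.2% over 21 clones.

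Extra chains were rare outside these clones, a value that the threshold partly fixes. In the other 172 clones, with 2523 cells, 4 cells (0.159%, 0.043 to 0.405) showed an alpha chain beside that of their clone, 3 of them in 5XFAD-2 and 1 in WT-2. With the threshold at 50% of cells it was 74 of 2763 cells (2.68%), since clones such as clone 1 then count among them. The share of clones with 2 alpha chains was 14.5% of 117 clones of 5 to 9 cells, 7.69% of 39 clones of 10 to 19 and 16.3% of 43 clones of 20 or more, with overlapping intervals.

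**Figure D2:**
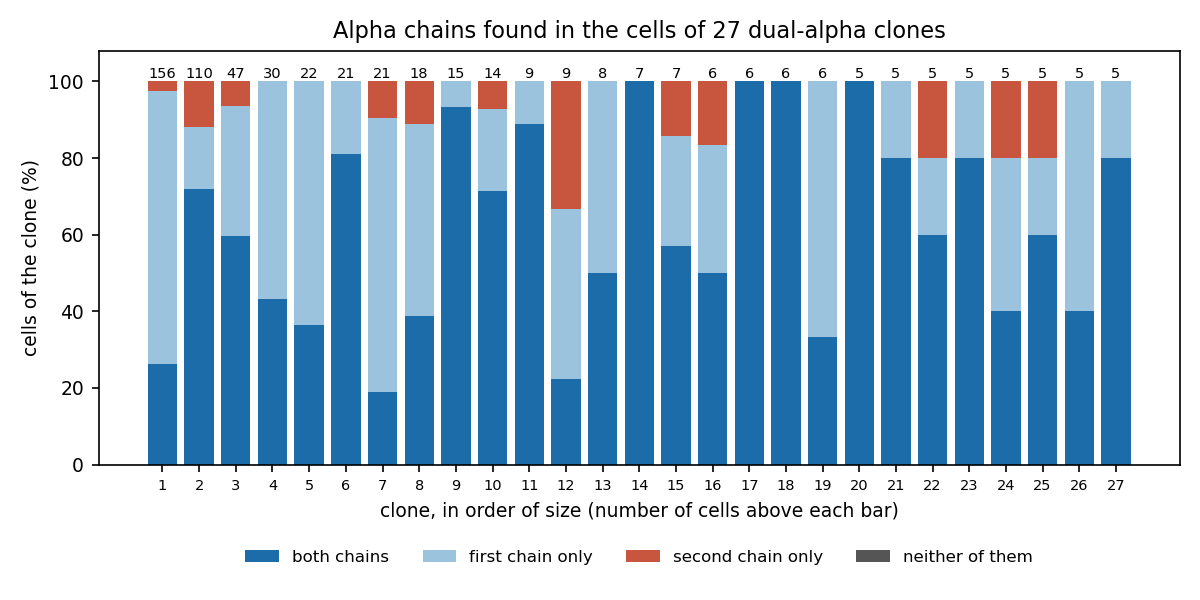
Share of cells (%, y axis) in each of 27 dual-alpha clones (x axis, largest first, number of cells above the bar) in which both alpha chains, only the more frequent, or only the other was read. Both chains were read in 26.3% of the 156 cells of clone 1 and in 71.8% of the 110 cells of clone 2.

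Of the 2 alpha chains the one with fewer UMIs was not a trace. In dual-alpha cells the chain with more UMIs had a median of 6 UMIs and the other a median of 3, beside 5 for the only chain of single-alpha cells. The minor chain made up a median of 37.8% of a cell's alpha UMIs (quartiles 30.8% and 44.4%, lowest 11.1%), and 191 cells had equal numbers. It rested on 1 UMI in 77 cells (6.27%) and on 5 or more in 315 (25.7%). The median of the major chain was 6 UMIs against 4 for the only chain of single-alpha cells in 5XFAD-2 and PS19, 6 against 5 in 5XFAD-1, 5 against 4 in WT-2, 5.5 against 5 in WT-1 and 5 against 5 in PS-5X. The major chain was the larger of 2 by UMIs, so a higher value than that of an only chain is in part built in. Mean UMIs were 6.24 for the major and 3.69 for the minor chain, and 5.30 for the only chain of single-alpha cells. The mean log2 difference of the medians was 0.32, with the major chain higher in 5 pools and equal in PS-5X (SD 0.24, exact sign-flip permutation test, p = 0.0625, adjusted 0.208). Without cells of receptors found in more than 1 pool it was 0.37. TRB UMIs, a median of 10 and 9 over all cells, differed by a mean of 0.08 log2 (SD 0.10, exact p = 0.188, adjusted 0.375).

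The share was higher in cells of greater depth. It was 7.64% (6.45 to 8.96) at 1 to 4 TRB UMIs, 9.91% at 5 to 9, 11.1% at 10 to 19 and 11.7% (9.88 to 13.6) at 20 or more, and the class of fewest TRB UMIs had the lowest share in each of the 6 pools. By gene expression UMIs it was 7.77% below 4000, 10.3% from 4000, 10.8% from 7000 and 11.7% from 10000. CD8 dual-alpha cells had a median of 6941 gene expression UMIs and single-alpha cells 6563, and the pool medians differed by a mean of 0.10 log2 (SD 0.07, higher in 5 of 6 pools, exact p = 0.0625, adjusted 0.208). These shares are therefore shares of cells in which both chains were read. When 5 TRA UMIs were drawn from each cell and shallower cells were left out (200 in WT-1 to 1836 in PS-5X), the share was 14.6% in 5XFAD-1 to 17.6% in 5XFAD-2, beside 10.5% and 11% without drawing. The drawing leaves out single-alpha cells more often, since 2 chains add their UMIs.

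The gene expression library was searched for the TRAV family of each chain. Of 1149 dual-alpha cells whose chains came from different TRAV families, 849 (73.9%, 71.2 to 76.4) had at least 1 gene expression UMI of the minor chain's family, and 72.8% had one of the major chain's family. Single-alpha cells had a UMI of their own family in 80.3%, and of a family they did not carry in 4.05%, which is the background for 1 family. The minor chain's family was found in 91.5% of these cells in WT-1, 85.6% in 5XFAD-2, 83.9% in 5XFAD-1, 82.8% in WT-2, 79.6% in PS19 and 55.9% in PS-5X, against backgrounds of 3.67% to 4.54%. PS-5X was the lowest, and counting each receptor once it gave 71.9%. Dual-alpha cells held a mean of 7.20 Trav UMIs and single-alpha cells 4.62, and the mean was higher in all 6 pools. Gene expression UMIs of 2 TRAV families were found in 58.0% of dual-alpha cells and in 36.8% of single-alpha cells. In PS-5X these shares were 40.1% and 33.2%.

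The J segments of the 2 chains of a cell lay near each other. Over distinct receptors the mean distance in TRAJ numbers was 7.70 in WT-1, 8.15 in PS19, 8.40 in PS-5X and 9.16 in 5XFAD-1, and in the separate run it was 9.70 for 5XFAD-2 and 10.3 for WT-2. Between chains of different dual-alpha cells of the same pool it was 17.5, 16.1, 16.5, 17.4, 16.7 and 16.7 in this order. The 2 sets did not overlap, and the mean difference was -7.91 (SD 1.15). It was lower in 6 of 6 pools (exact sign-flip permutation test, p = 0.03125, the smallest that 6 pools allow, adjusted p = 0.208 over 10 comparisons, which did not pass 0.05). An adjusted p under 0.05 could be reached only if most of the 10 comparisons had this smallest p, so the adjusted value cannot decide on 1 comparison. Without receptors found in more than 1 pool the difference was -7.62, and it stayed between -8.21 and -7.54 when any single pool was left out.

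Across the 881 distinct receptors of all pools the TRAJ numbers of the 2 chains correlated with Pearson r = 0.66 and Spearman rho = 0.67, and with r = 0.59 in WT-2 to 0.76 in WT-1 within pools. This is a description across receptors of pooled mice, which are not independent replicates. The 2 chains lay within 5 TRAJ numbers in 350 receptors (39.7%), against 20.2% of chains from different cells, and more than 20 apart in 9.53% against 33.9%. The median distance was 7 J numbers, or 7.62 kb of the locus, against 15 J numbers between different cells. In 53 receptors both chains used the same J segment. When the major chain used TRAJ25 to TRAJ1, the J segments nearest Trac, the other chain did so in 62.4% of 282 receptors and used TRAJ61 to TRAJ45 in 3.90%. When the major chain used TRAJ61 to TRAJ45, the other did so in 61.1% of 208 and used TRAJ25 to TRAJ1 in 3.85%. With TRAJ44 to TRAJ26 in the major chain, the other used this stretch in 59.1% of 391. Over all receptors the other chain used TRAJ25 to TRAJ1 in 30.8%, TRAJ44 to TRAJ26 in 45.3% and TRAJ61 to TRAJ45 in 23.95%.

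**Figure D3:**
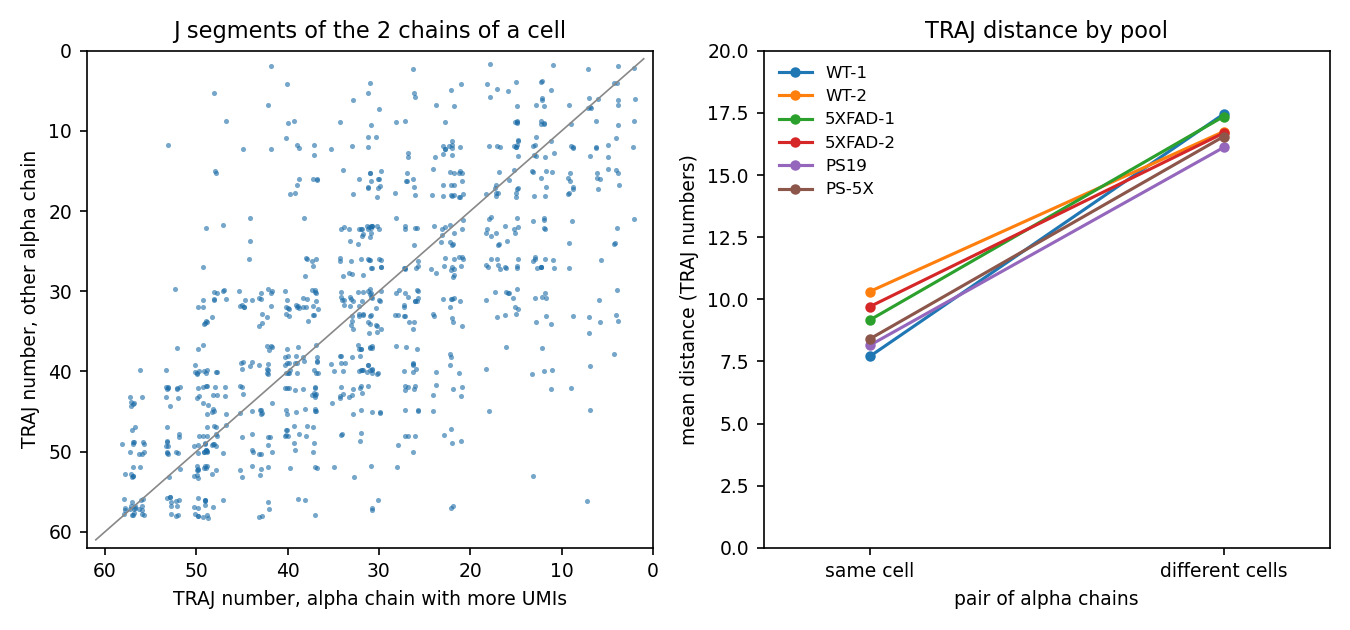
Left, TRAJ number of the alpha chain with more UMIs (x axis) against that of the other (y axis) in 881 distinct dual-alpha receptors, jittered by under 1 J number, with the line of equal numbers. Right, mean distance (TRAJ numbers, y axis) in each pool between chains of the same cell, 7.70 to 10.3, and of different cells, 16.1 to 17.5.

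The J distance was also given by the support of the minor chain and the kind of cell. It was 11.5 for 59 receptors whose minor chain had 1 UMI, 8.79 for 215 with 2 UMIs, 9.07 for 372 with 3 to 4 and 8.66 for 235 with 5 or more. It was 9.22 in CD8 cells and 8.72 in CD4 cells, 8.96 in clones of 1 cell and 9.57 in larger clones. In the 25 distinct clones of 5 or more cells it was 7.84. In 28 receptors of putative doublets it was 7.71, and in 37 receptors of cells with UMIs of both lineages 11.1. Barcodes with 2 TRA and 2 TRB contigs, which were no members, gave 14.6 over 200 receptors, against 17 between different cells. Their same-cell distance was above that of the dual-alpha cells in each of the 6 pools, from 11 against 8.40 in PS-5X to 18.3 against 9.16 in 5XFAD-1. These 204 barcodes had a median of 11588 gene expression UMIs, against 6505.5 in dual-alpha cells, 22.5% of them had UMIs of both lineages against 4.40%, and 18.6% were putative doublets against 2.61%.

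**Figure D4:**
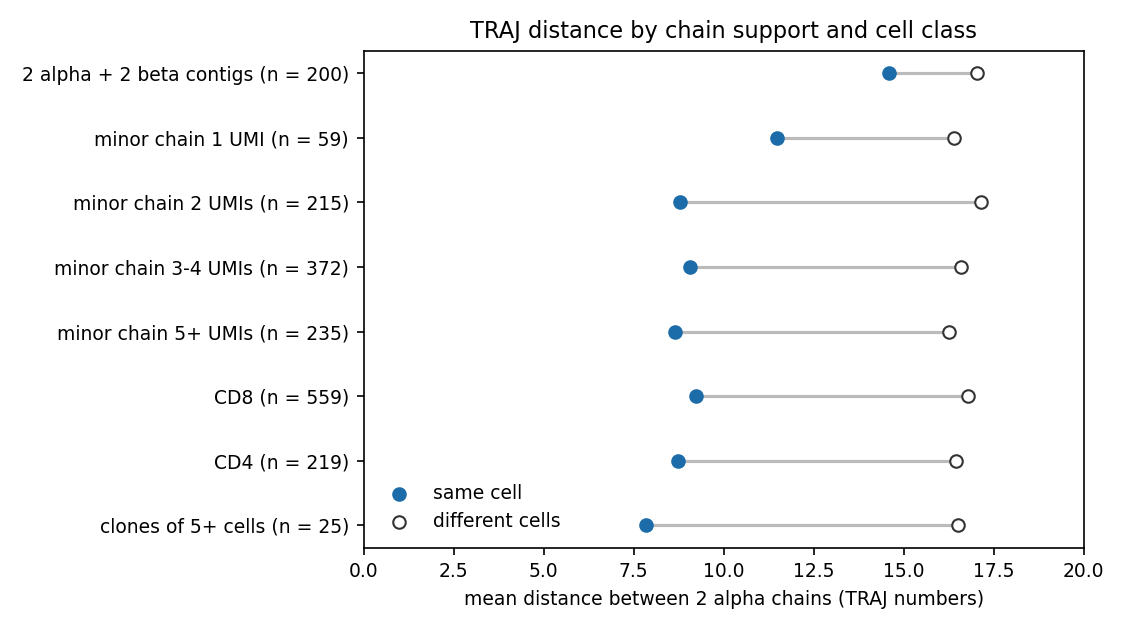
Mean distance between the 2 alpha chains (TRAJ numbers, x axis) within a cell (filled) and between cells of the same set (open), by UMIs of the minor chain and by cell class (y axis, number of receptors in brackets). Barcodes with 2 alpha and 2 beta contigs (14.6) and minor chains of 1 UMI (11.5) lie to the right of the other 6 plotted sets, which lie between 7.84 and 9.22.

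V segments paired less tightly than J segments. In V segment order along the locus the 2 chains of a cell were 35.3 positions apart in PS19, 37.6 in 5XFAD-1, 39.9 in 5XFAD-2, 41.9 in WT-2, 42.9 in WT-1 and 43.9 in PS-5X, and chains of different cells 43.0 to 44.7. The mean difference was -3.31 positions (SD 3.47, lower in 5 of 6 pools, exact sign-flip permutation test, p = 0.0938, adjusted 0.234), and -2.74 without receptors found in more than 1 pool. Across receptors the V orders correlated with r = 0.11, from -0.0032 in PS-5X to 0.30 in PS19. The 2 chains came from the same TRAV family in 8.51% of receptors and chains of different cells in 8.25%.

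Dual-alpha and single-alpha chains did not differ beyond the spread between pools in mean position along the locus. The mean TRAJ number of dual-alpha chains was 32.5 ± 0.875 and that of single-alpha chains 32.8 ± 0.664 (SD, n = 6 pools, exact p = 0.438, adjusted 0.547). By stretch, with no test, TRAJ44 to TRAJ26 made up 44.8% of dual-alpha and 40.1% of single-alpha chains and were higher in all 6 pools, and TRAJ61 to TRAJ45 made up 23.8% and 27.3% and were lower in all 6. Their mean V order was 66.8 ± 2.13 and 68.1 ± 1.70 (exact p = 0.344, adjusted 0.547), and it was lower in every pool except WT-1, where it was 4.46 positions higher. Without WT-1 the mean difference was -2.54 positions (exact p = 0.0625, adjusted 0.156). Alpha CDR3s were 41.3 and 41.2 bases long and held 0.914 and 0.865 bases of neither segment. Mean lengths of the beta CDR3 were 41.5 and 41.8 bases.

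Single segments differed between the kinds of cell in usage, with no test of each. Those named went the same way in all 6 pools, which some of 89 TRAV and 43 TRAJ segments can do by chance. TRAV1, the V segment farthest from the J segments, was in 1.48% of dual-alpha chains (26 of 1762) and 0.693% of single-alpha chains and higher in all 6 pools. The V segments next to it had lower shares in dual-alpha chains, TRAV2 with 0.738% and 1.005% and TRAV3-1 with 0.17% and 0.421%. TRAV6-2 and TRAJ4 were also higher in 6 pools, and TRAV3-4 and TRAJ13 lower in 6. TRAV15D-1-DV6D-1, a segment shared with the delta chain, was in 1.02% and 0.122%, higher in 6 pools. TRAJ31 was in 5.11% and 3.75%, and TRAJ16 in 1.65% and 0.747%, both higher in 6 pools. TRAV11 was used less in dual-alpha cells, with 1.02% and 2.76%, and TRAJ18 with 2.27% and 4.84%, both lower in all 6 pools. TRAV11 joined to TRAJ18 is the invariant alpha chain of natural killer T cells, and of 215 cells with this chain 4 were dual-alpha (1.86%, 0.509 to 4.70), below the 10.2% of all cells. Cells with this chain are part of the counts of both segments. Zbtb16, the transcription factor of these cells, had a UMI in 0.407% of dual-alpha and 1.76% of single-alpha cells.

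Gene expression was compared on UMIs summed per pool, with 1 dual-alpha and 1 single-alpha sum from each of the 6 pools. In CD8 cells Trac, the alpha constant gene, was higher in dual-alpha sums in all 6 pools. Its level in CPM, the UMIs of a gene scaled by the total of the sum, was 421 in dual-alpha against 237 in single-alpha cells in WT-1, 303 against 243 in 5XFAD-1, 292 against 239 in PS-5X, 250.1 against 198 in WT-2, 234 against 195 in PS19 and 228 against 179 in 5XFAD-2. WT-1 had the largest gap, and the groups overlapped across pools but not within any. The rise was 0.38 on the log2 scale (SE 0.07, edgeR quasi-likelihood test with pool as block, adjusted p = 0.0265). It kept its size but not its call without WT-2 (adjusted p = 0.0954), 5XFAD-1 (0.12), PS19 (0.0531) or PS-5X (0.0839), and in the middle 50% of cells by gene expression UMIs (0.37, adjusted p = 0.0746). Without cells of receptors found in more than 1 pool Trac had 0.37 (edgeR adjusted p = 0.0259). The cells were split by the number of alpha contigs read, which can itself depend on the amount of alpha RNA, and the part of this in the rise was not tested.

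The beta constant genes and the CD3 subunits did not pass the test in CD8 cells. The log2 difference was -0.12 for Trbc1 (SE 0.07), -0.0074 for Trbc2 (SE 0.05), 0.02 for Cd3e (SE 0.04) and 0.03 for Cd247 (SE 0.06), the zeta chain. In the T cell receptor loci 5 of 97 genes tested passed (5.15%), with 2 higher and 3 lower. The other higher gene was Trav15-1-dv6-1, at 71.1 CPM in WT-1 and 82.8 in 5XFAD-1 and at most 10.5 in the other dual-alpha sums, which is the V segment of the rarer chain of clone 1 and its WT-1 copy. The lower genes were Trav13d-1, Trdv2-2 and Trbv30, each with at most 5 UMIs in all dual-alpha CD8 cells. Counts of Trav genes with near-identical copies are uncertain, since reads can be split between the copies. Dual-alpha cells were chosen for a further TRAV chain, so more Trav UMIs follow from the rule. Over the 60 Trav genes 43 had a positive difference, with a median of 0.29, and over the 22 Trbv genes 8 had, with a median of -0.11.

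Outside the receptor loci 3 of 10022 genes passed in CD8 cells (0.0299%), none of them higher, and 319 had an unadjusted p under 0.05 (3.18%). Cd40lg, the ligand of CD40 by which helper T cells activate B cells, was at 2.73 CPM in dual-alpha against 26.9 in single-alpha sums in WT-1, 2.76 against 22.6 in 5XFAD-2, 6.73 against 22.1 in PS-5X, 8.56 against 20.6 in WT-2, 7.02 against 13.5 in PS19 and 0.963 against 7.39 in 5XFAD-1. It was lower in every pool and fell by 1.78 on the log2 scale (SE 0.24, edgeR adjusted p = 0.00206). With 1 cell per receptor it had a difference of -0.96 (edgeR adjusted p = 0.661), and in clones of 1 cell -0.59 (adjusted p = 1). Without cells of receptors found in more than 1 pool it had -1.53 (adjusted p = 0.00913). Cd40lg is also a marker of CD4 T cells. It had a UMI in 364 of 7773 single-alpha cells (4.68%) and 18 of 859 dual-alpha cells (2.10%).

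Both other calls rested on a few single-alpha cells. Ttr, the transthyretin gene of choroid plexus, had 2899 UMIs in single-alpha CD8 cells, and 2884 of them were in 1 cell of WT-2, without which pool it was below the filter on low counts. It was also below the filter without WT-1, in clones of 1 cell, in the middle 50% of UMIs and without receptors found in more than 1 pool. With DESeq2 its log2 difference had the opposite sign (1.06, adjusted p = 1). Il17a, the cytokine of IL-17-producing T cells, had no UMI in 859 dual-alpha CD8 cells and 389 UMIs in 24 of 7773 single-alpha cells, of which 119 were in 1 cell. Against a floor of 3 UMIs over all dual-alpha sums (0.472 CPM) it was at least 15.4-fold lower. The call of Il17a was lost without 5XFAD-1 (edgeR adjusted p = 0.0749) and with DESeq2 (adjusted p = 1), and the gene was below the filter without putative doublets and in the middle 50% of UMIs. The summed level of 6 γδ T cell markers was 0 to 57.7 CPM in dual-alpha and 4.75 to 37.1 CPM in single-alpha sums.

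The genes with the smallest p among those higher in CD8 dual-alpha cells did not pass. They were Ptpn13 (log2 difference 0.53, SE 0.14, positive in 6 pools), Vim (0.18, SE 0.05), Tubb2a (0.48, SE 0.13), Lig1 (0.39, SE 0.11) and Rnf32 (1.29, SE 0.36), with adjusted p of 0.708 to 0.781. Without WT-2 Vim, an intermediate filament gene, did pass (edgeR adjusted p = 0.0306). Among those lower, Klrg1, an inhibitory receptor of effector cells, had a difference of -1.0 (SE 0.20, adjusted p = 0.0845, negative in 6 pools), which was 0.07 in clones of 1 cell and -0.08 with 1 cell per receptor. H2-Eb1, an MHC class II gene, had -2.46 (SE 0.49, adjusted p = 0.0922).

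In CD8 cells edgeR called no gene of the lists of T cell function. Of 14 genes of the receptor complex and its proximal signalling 0 were called by edgeR and 0 had an unadjusted p under 0.05, with a median log2 difference of 0.006 beside 0.0034 over all genes. In this group Lck, the kinase that starts receptor signalling, had 0.06 (SE 0.04) and Zap70 0.02 (SE 0.06). The 14 genes of receptor signal strength gave a median of 0.053, 0 calls and 1 unadjusted, with Cd5, which scales with signal in the thymus, at 0.12 (SE 0.07), Cd69 at 0.06 (SE 0.05) and Nr4a1 at -0.02 (SE 0.06). The 16 naive and central memory genes gave -0.014 and 0 unadjusted, and the 12 tissue residency genes 0.013 and 0 unadjusted. The 20 cytotoxic genes gave 0.02 with 11 positive. Of them 4 had an unadjusted p under 0.05, all lower, where the share over all genes was 3.18%. Gzmb, a granzyme, had 0.53 (SE 0.30) and Ccl5 -0.10 (SE 0.04), neither past the test. Gzmb had 0.02 without receptors found in more than 1 pool, 0.16 when WT-1 was left out and 0.25 when 5XFAD-1 was. The 13 tested interferon response genes gave -0.039 with 1 of them positive and 4 lower at an unadjusted p under 0.05, where the share over all genes was 3.18%. Rag1, Rag2, Dntt and Ptcra, which act in receptor rearrangement in the thymus, were below the filter in CD8 and CD4 sums alike.

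In CD4 cells the dual-alpha sums were small, 100601 to 327474 UMIs. Outside the receptor loci 2 of 7433 genes passed (0.0269%), both lower, and 316 had an unadjusted p under 0.05 (4.25%). Birc5, which encodes survivin and is active in dividing cells, was at 0 CPM in the dual-alpha sums of WT-1, 5XFAD-1, 5XFAD-2 and PS-5X, at 16.8 in WT-2 and at 15.7 in PS19. In single-alpha sums it was lowest in PS-5X at 19.3, followed by WT-1 at 25.5, WT-2 at 29.0, 5XFAD-2 at 43.9, 5XFAD-1 at 46.2 and PS19 at 71.4. The groups did not overlap, the difference was -2.63 (SE 0.46, edgeR adjusted p = 0.0394), and 2 of 245 dual-alpha and 50 of 2015 single-alpha cells had a UMI. The call was lost in clones of 1 cell (-2.0, edgeR adjusted p = 0.535), with 1 cell per receptor (-2.21, 0.184), with DESeq2 (0.0547) and without 5XFAD-1 (0.115), 5XFAD-2 (0.129), PS19 (0.23) or PS-5X (0.0692).

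All 10 tested cell cycle genes had a negative difference in CD4 cells, with a median of -1.25 beside 0.0057 over all genes, 1 called and 7 at an unadjusted p under 0.05 (4.25% over all genes). Outside the list, Ube2c, which acts in the exit from mitosis, had -2.02 (SE 0.37, edgeR adjusted p = 0.0502) and Tpx2, a spindle gene, -2.94 (SE 0.60, adjusted p = 0.0914). WT-1 and PS19 went the other way for Mki67. It was at 280.4 CPM in 14 dual-alpha cells against 30.9 in single-alpha cells in WT-1, and at 154 against 125 CPM in PS19. Over all pools Mki67 had -0.62 (SE 0.47, edgeR adjusted p = 0.999). In CD8 cells 8 of the 10 had a positive difference, with a median of 0.095 and none called by edgeR or at an unadjusted p under 0.05. The difference between the lineages was not tested. Without WT-1 edgeR called 28 genes in CD4 cells and without WT-2 5, against 0 without PS19 and 1 without each of the other 3 pools.

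Ccl1, a chemokine gene, was the other CD4 call. It had no UMI in 245 dual-alpha cells and 433 in 25 of 2015 single-alpha cells, of which 235 were in 1 cell, and against a floor of 3 UMIs (2.04 CPM) it was at least 16.9-fold lower. The call was lost in the middle 50% of UMIs (edgeR adjusted p = 0.225) and with DESeq2 (adjusted p = 1.0). Ccl1 was below the filter without 5XFAD-1, which held 275 of its 433 UMIs, without PS19 and in clones of 1 cell. Zeb2, a transcription factor of effector cells, had -1.79 (SE 0.34, edgeR adjusted p = 0.054, negative in 6 pools). Among the positive differences Acot2 (0.82, SE 0.19), Ifngr1, a subunit of the interferon γ receptor (0.37, SE 0.09), Igkc, an antibody light chain gene (1.26, SE 0.30), Etnk1 (0.58, SE 0.14) and Areg (1.43, SE 0.39) had the smallest p, with adjusted p of 0.199 to 0.349. Areg had 0.75 without 5XFAD-1, where it was at 368 CPM in dual-alpha and 25.8 in single-alpha cells. The summed level of 6 B and plasma cell markers, Igkc included, was 150 to 245 CPM in dual-alpha and 133 to 227 CPM in single-alpha sums. Ccr7, the homing receptor of naive and central memory cells, had 0.43 (SE 0.12, adjusted p = 0.349) and Cd5 0.29 (SE 0.10, adjusted p = 0.67). The 16 naive and central memory genes gave a median of 0.176, beside 0.0057 over all genes, with 12 positive and 0 called by edgeR. Of them 3 were higher at an unadjusted p under 0.05, where the share over all genes was 4.25%.

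Trac in CD4 cells had a difference close to that in CD8 cells, 0.41 (SE 0.11, edgeR adjusted p = 0.306, positive in 5 of 6 pools). It was at 387 CPM against 254 in WT-1, 382 against 262 in 5XFAD-1, 327 against 200.5 in PS19, 321 against 242 in PS-5X, 272 against 222 in 5XFAD-2 and 235 against 243 in WT-2. The dual-alpha sum was the lower one in WT-2 alone. Of 64 receptor genes 1 passed (1.56%), Trav1, at 6.71 to 195 CPM in dual-alpha and 0 to 9.00 in single-alpha sums. The highest value was that of 5XFAD-2, where clone 11 carries TRAV1. Of 38 Trav genes 34 had a positive difference, as the rule favours, with a median of 0.79, and of 19 Trbv genes 10 had, with a median of 0.025.

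**Figure D5:**
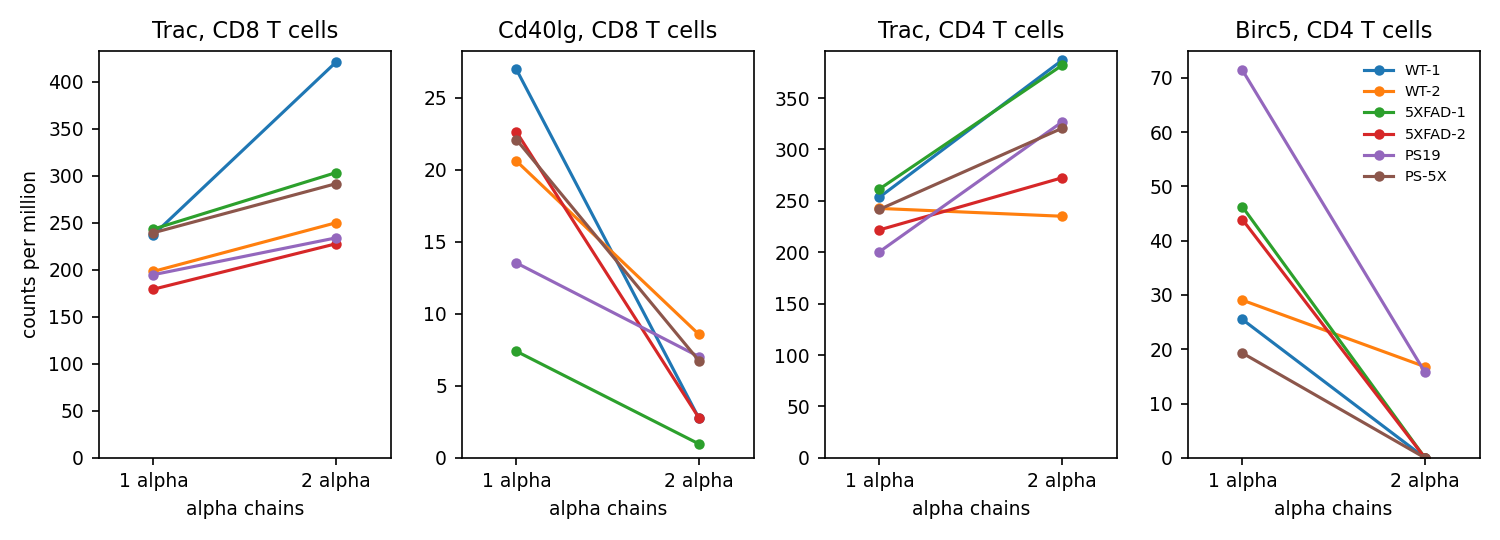
CPM (y axis) of Trac and Cd40lg in CD8 cells and of Trac and Birc5 in CD4 cells, in the single-alpha and dual-alpha sums (x axis) of each pool, joined by a line. Trac is higher in dual-alpha sums in 6 of 6 pools in CD8 and 5 of 6 in CD4 cells, Cd40lg is lower in 6 of 6, and Birc5 is lower in 6 of 6 with 4 sums at 0.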

How the data were processed

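Gene expression and receptor libraries of 6 pools were used. The authors deposited UMI counts per gene and barcode and UMI counts per receptor contig. Cell Ranger 6.0.1 is listed in the submitters' processing notes, which also name GRCm38 and mm10. The other deposited columns used (barcodes, gene symbols, pool names, consensus positions) are text or positions, per the file headers. All 29787 contigs were productive and full length. Pools held 5883210 (WT-1) to 38616794 (PS-5X) gene expression UMIs and 10880 to 80039 receptor UMIs.

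The members, gene lists and rules were chosen with earlier results of these data known. CD8 cells had 1 or more Cd8a or Cd8b1 UMIs and no Cd4 UMI, and CD4 cells the reverse. Doublets were kept: the automatic Scrublet threshold (scanpy 1.11.5) marked under 0.5% of barcodes in 5 of 6 pools, so an alternative left out the highest scores, 0.8% per 1000 barcodes. Sums of 10 or more cells were tested with edgeR 4.0.16 in R 4.3.3 (filterByExpr, TMM, quasi-likelihood F test, pool as block, Benjamini-Hochberg adjusted p of 0.05), and an SE is the log2 difference over the root of F. On counts simulated for the CD8 comparison (10063 genes) it recovered 98 of 100 changes of 2-fold and 100 of 100 of 3-fold with 9 false calls. The changed genes were drawn from well-counted genes outside the receptor loci, with a fixed dispersion and no difference between pools. Changes in genes of low counts and in the CD4 sums were not simulated, so the recovery does not hold for them. DESeq2 1.42.0 was an alternative. Paired pool values were tested by exact two-sided sign-flip permutation, adjusted over 10 comparisons, and p-values measure the spread between pools. With 6 pools an adjusted p under 0.05 was out of reach unless most of the 10 comparisons had the smallest possible p. Replicate numbers of WT and 5XFAD mark a shared sequencing run in the labels, so they pair the pools. Named genes were those passing at 20 CPM or more with the same sign in all pools or, as here fewer than 5 did so, the 5 of lowest p per direction, plus 37 fixed genes, 7 of which were below the filter in each lineage.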

Additional observations from a re-analysis of the deposited data

Results flagged for a closer look

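The CD4 dual-alpha share of 5XFAD-2, 17.6%, lay far from that of the other 5 pools (8.95% to 12.1%) for a group of 6, and so did the difference between its CD8 and CD4 shares, -8.14 percentage points. Counting each receptor once, the CD4 share of 5XFAD-2 was 16.2% (39 of 241 receptors, 11.8 to 21.5) and that of the other pools 10.0% to 12.3%. The V order of dual-alpha against single-alpha chains in WT-1, 4.46 positions higher, was also far from the differences in the other pools, -4.05 to -1.46. Chance marks about 1 in 20 groups in this way, and 13 groups of 6 values were examined. Outside the cells compared, 411 kept cells had 1 TRA and 2 TRB contigs, of which 13.1% were putative doublets and 9.49% had UMIs of both lineages, against 2.29% and 2.22% of single-alpha cells.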

How the results depend on the processing

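Of 74 values under alternatives other than leaving out a pool, over 14 results, 57 were counted as unchanged. For differences this meant the same direction and side of the threshold. For counts of called genes it meant a count near that of the main comparison, whichever genes were called. The amyloid difference in the dual-alpha share (0.20 points) turned to -0.18 without cells of receptors found in more than 1 pool and to -0.16 at 5 TRA UMIs per cell, and leaving out each pool gave -0.351 to 1.07. With replicate number as a block it was 0.20 (exact permutation p = 1), while the other tests already compare within pools. Expanded against singleton clones turned to -1.25 (CD8) and -2.50 (CD4) without receptors found in more than 1 pool, and leaving out each pool gave -0.0025 to 1.31 and -1.74 to 4.42. The share of cells with both chains in dual-alpha clones moved from 52.0% to 69.2% with a threshold of 50%. Genes called in CD8 cells (3) became 6 in clones of 1 cell, 1 in the middle 50% of UMIs, 1 with DESeq2 and 43 with every gene of 1 or more UMIs, and 2 to 6 when each pool was left out (6 without 5XFAD-2). Genes called in CD4 cells (2) became 4 with each alpha chain at 2 or more UMIs, 0 in clones of 1 cell, 0 in the middle 50% of UMIs, 0 with DESeq2 and 64 with every gene of 1 or more UMIs, and 0 to 28 when each pool was left out. Alternatives chosen after seeing the data were the clone size classes without shared receptors, 1 cell per receptor (1 call in CD4 cells) and edgeR with no pool term and no replicate block, with 0 calls in CD8 and in CD4 cells. Ttr turned to 1.06 with DESeq2. Of 1185 values of named genes 18 lost their call and 26 gained one. The cause of these changes was not tested. The shares count only cells in which both chains were read.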
